A study of Homo sapiens with 12 samples.

Results

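The globin genes are the 10 genes named HBA1, HBA2, HBB, HBD, HBE1, HBG1, HBG2, HBM, HBQ1 and HBZ, taken by name from a gene count table that keeps 26481 genes in 12 RNA-seq libraries. All libraries came from HEL, a human erythroleukemia cell line that serves as a model of acute myeloid leukemia (AML) and that makes globin RNA in culture. The cells carried a library of heritable DNA barcodes and were kept untreated with the solvent dimethyl sulfoxide (NT, n = 2), or received doxorubicin at 1.8 µM (Doxo, n = 3), doxorubicin at 1.8 µM with cytarabine at 6 µM (Doxo+Cyta, n = 3), or these 2 drugs with decitabine at 0.1 µM (Doxo+Cyta+DAC, n = 4). Doxorubicin is an anthracycline that poisons topoisomerase II, cytarabine is a cytidine analog that stops DNA synthesis, and decitabine is a hypomethylating agent that traps DNA methyltransferases. Drugs were present for about 72 h, dead cells were removed, and the survivors grew in fresh medium for approximately 30 days until the seeded number of cells was reached again, so the treated libraries are relapsed cultures and not cells under drug. All cultures descend from 1 cell line, and each relapse is a population of the clones that grew back, so changed expression within cells and a changed mix of clones cannot be told apart in these bulk libraries, nor can fewer cells of a type and less RNA per cell.

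Hemoglobin is built from alpha-type and beta-type globin chains, each holding a heme. The alpha-type genes lie in a cluster on chromosome 16 (HBZ, HBM, HBA2, HBA1, HBQ1) and the beta-type genes in a cluster on chromosome 11 (HBE1, HBG2, HBG1, HBD, HBB). Each cluster is read in developmental order from a distant enhancer: HBE1 and HBZ serve the embryo, HBG1 and HBG2 the fetus, and HBB with a little HBD the adult, whereas HBA1 and HBA2 serve the fetus and the adult. HBB, HBD, HBE1 and the HBG genes are silenced or switched on in turn by repressors such as BCL11A and ZBTB7A, by DNA methylation and by activators such as GATA1 and KLF1, and AML lines of erythroid type often keep embryonic and fetal globin genes active.

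In GRCh38 the beta cluster genes spanned chr11:5225466-5227071 (HBB), chr11:5232829-5234628 (HBD), chr11:5248272-5249857 (HBG1), chr11:5253191-5254781 (HBG2) and chr11:5268350-5270143 (HBE1), all on the minus strand. The alpha cluster genes spanned chr16:152855-154505 (HBZ), chr16:165974-166768 (HBM), chr16:172847-173710 (HBA2), chr16:176651-177522 (HBA1) and chr16:180334-181179 (HBQ1), all on the plus strand. Each of the 10 genes was counted over 3 exons, with 510 exon bases in HBM and up to 816 in HBE1. RefSeq promoter sequences (GRCh38.p14) were given for 2 members, HBD and HBM, which differed in what was measured: HBD had counts in every library and moved between groups, and HBM had none. The 250 bases before the annotated start of each are printed 5′ to 3′ on the strand of the gene, with copies of searched motifs in capitals. They cover chr11:5234484-5234733 (minus strand) for HBD and chr16:165728-165977 (plus strand) for HBM.
HBD: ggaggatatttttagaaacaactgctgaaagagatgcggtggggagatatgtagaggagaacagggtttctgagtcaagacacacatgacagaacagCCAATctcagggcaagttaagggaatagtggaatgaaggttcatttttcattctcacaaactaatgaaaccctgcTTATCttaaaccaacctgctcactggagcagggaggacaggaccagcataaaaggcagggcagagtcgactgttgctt
HBM: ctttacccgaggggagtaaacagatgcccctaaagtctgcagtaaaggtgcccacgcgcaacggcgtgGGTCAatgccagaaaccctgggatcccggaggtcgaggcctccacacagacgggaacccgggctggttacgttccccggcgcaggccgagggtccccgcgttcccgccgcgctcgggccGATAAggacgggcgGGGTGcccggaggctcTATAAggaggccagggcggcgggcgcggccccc
Capitals mark any copy, on either strand, of 5 short motifs, and no 2 of these copies overlap. CCAAT is read by the general factor NF-Y. CACCC is bound by KLF1. GATAA is read by GATA factors such as GATA1. TATAA is the core of the TATA box that positions the start. TGACC is only part of the sequence read by the repressor BCL11A. The HBD window held 1 CCAAT, at 153 to 149 bases before the start, and 1 GATAA on the other strand at 78 to 74 bases. The HBM window held the TATA box letters at 33 to 29 bases before the start and the GATA letters at 63 to 59 bases. On the other strand it held the KLF1 letters at 49 to 45 bases and TGACC at 182 to 178 bases. Among 35116 RefSeq promoter windows of this length, CCAAT was in 32%, CACCC in 54.7%, GATAA in 20.4%, TATAA in 18.9% and TGACC in 32.6%. The gene model used for counting begins HBD inside the printed window, upstream of the RefSeq start.

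Libraries held 12763582 to 19106235 counted fragments, and the globin genes took 0.625% to 0.966% of them. Levels are given as CPM, the count of a gene scaled to a common library size after TMM normalization, which evens out library composition, and a count of 3 corresponds to 0.154 to 0.237 CPM, which was taken as the floor of detection; it covers counting error only. A call means an adjusted p under 0.05 in edgeR's quasi-likelihood test across 14164 genes. Of the 10 globin genes, 9 passed the filter on low counts, and HBM did not. The library Doxo 4 stood apart from Doxo 5 and Doxo 6 (chi-square per degree of freedom 29.7 and 27.3). Between Doxo 5 and Doxo 6 it was 3.10. Doxo+Cyta 20 likewise stood apart from Doxo+Cyta 19 and Doxo+Cyta 22 (46.7 and 48.5, against 7.33). Counts are therefore also given without Doxo 4 and Doxo+Cyta 20, a setting that was not planned. Of 14 erythroid markers 13 were above 1 CPM in every library of each group. The exception was AHSP, the chaperone of free alpha-globin, with at most 1 count in any library. The separate cultures of a group carry different numbers in the labels, and p-values measure the spread between them. The 3 comparisons against NT share the same 2 NT libraries, and the comparisons among relapses share libraries too.

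Fragments that match near-identical genes equally well may be missing from the counts, so the levels of HBG1, HBG2, HBA1 and HBA2, and of HBZ, may be too low, and the order and shares given for them carry that limit. Per kilobase of exon, the fetal gene HBG2 led in every group, followed by HBG1. In NT the mean levels per kilobase were 7931 ± 492.6 CPM for HBG2, 2083 ± 1001 for HBG1, 686 ± 61.0 for HBB, 360 ± 67.6 for HBA2, 257 ± 21.1 for HBA1, 201 ± 21.8 for HBE1, 24.9 ± 2.15 for HBQ1, 14.9 ± 0.0763 for HBD and 5.87 ± 0.276 for HBZ (SD, n = 2). No 2 neighbours in this order overlapped between their NT libraries. In Doxo+Cyta+DAC (n = 4) the order became HBG2 (6696 ± 1555 CPM per kilobase), HBG1 (1868 ± 226), HBE1 (1591 ± 696), HBA2 (927 ± 233), HBA1 (391 ± 42.0), HBB (244 ± 71.0), HBQ1 (20.2 ± 1.82), HBD (17.2 ± 5.14) and HBZ (2.04 ± 0.409). There HBE1 overlapped with both HBG1 and HBA2, HBA1 overlapped with HBB, and HBQ1 overlapped with HBD, so the order of these neighbours did not exceed their spread.

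Between Doxo and NT, 2 of the 9 tested globin genes were higher (HBE1, HBD) and 1 was lower (HBZ), where 6.06% of all tested genes were called higher and 4.63% lower. Between Doxo+Cyta and NT, HBE1 was higher and 0 were lower, against 0.911% and 0.551% of all genes; at an unadjusted p under 0.05, edgeR counted 2 higher and 0 lower, against 2888 of 14164 genes in either direction, and DESeq2 called 2 higher and 0 lower, against 816 genes. Between Doxo+Cyta+DAC and NT, 3 were higher (HBE1, HBA2, HBA1) and 2 lower (HBB, HBZ), against 24.9% and 23.7% of all genes. Among relapses, Doxo+Cyta against Doxo gave 0 higher and 1 lower (HBE1), against 1.07% and 2.32%; unadjusted p-values under 0.05 numbered 2 higher and 1 lower, against 2673 genes, and DESeq2 called 1 and 1, against 909 genes. Doxo+Cyta+DAC against Doxo gave 1 higher (HBA1) and 3 lower (HBB, HBD, HBG2), against 29.1% and 30.4%. Doxo+Cyta+DAC against Doxo+Cyta gave 2 higher (HBE1, HBA1) and 6 lower (HBB, HBD, HBG1, HBG2, HBZ, HBQ1), against 29.8% and 30.5%. Without Doxo 4 and Doxo+Cyta 20 the number called was 4, 2, 6, 1, 4 and 6 in these 6 comparisons, in the order given. Of all tested genes 5267, 2037, 8539, 1261, 9566 and 9409 were then called. In Doxo+Cyta against Doxo the 1 globin gene then called was HBZ, which was higher (1.43, adjusted p = 0.0434). HBE1 was not called there without these 2 libraries (adjusted p = 0.0617). The median log2 fold change of the 9 genes was 0.27, 0.34, -0.16, 0.07, 0.00 and -0.52, beside 0.01, 0.01, 0.02, 0.01, -0.01 and 0.00 over all tested genes.

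**Figure D1:**
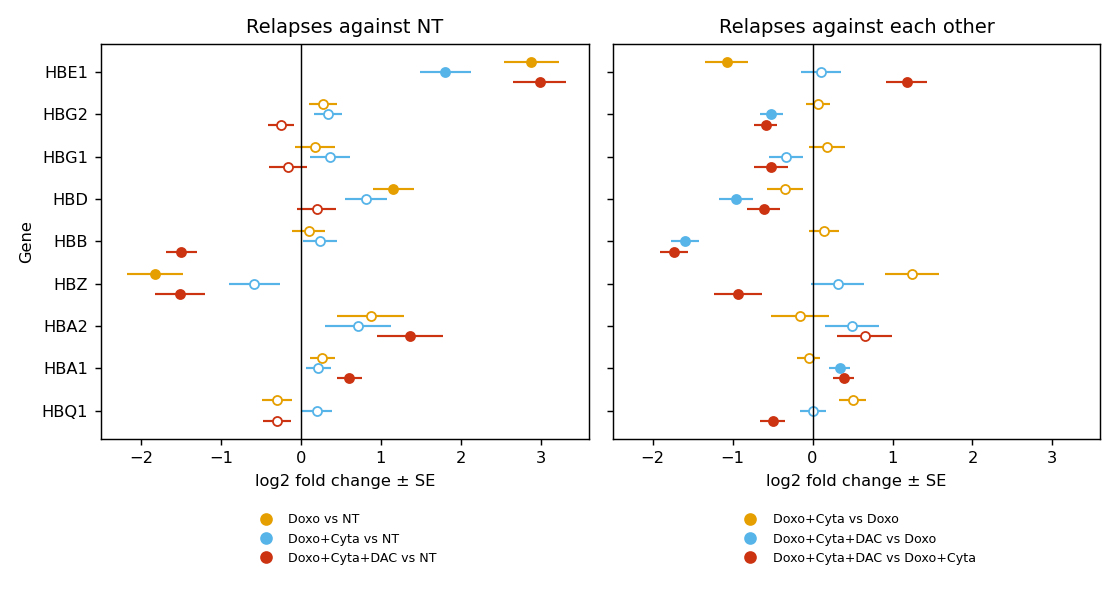
Log2 fold change (x axis, ± SE) of the 9 tested globin genes (y axis) in the 6 comparisons, with relapses against NT on the left and relapses against each other on the right; filled points have an adjusted p under 0.05 and open points do not. HBE1 lies at 1.81 to 2.99 in the left panel, and HBB lies below -1.4 wherever Doxo+Cyta+DAC is compared.

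HBE1, the embryonic epsilon chain, was the globin gene called in all 3 relapse groups against NT. It stood at 176 and 151 CPM in NT 1 and NT 2, and at 1189, 1198 and 1238 CPM in Doxo 4, 5 and 6. Doxo+Cyta 19, 20 and 22 held 461, 596 and 664 CPM. Doxo+Cyta+DAC 30, 31, 32 and 33 held 1194, 694, 1239 and 2065 CPM. Every relapse library was above both NT libraries, and every Doxo+Cyta library was below every Doxo and every Doxo+Cyta+DAC library. Against NT, HBE1 was 7.38-fold higher in Doxo (a log2 change of 2.88 with SE 0.34 at adjusted p = 0.000465), 3.50-fold higher in Doxo+Cyta (1.81, SE 0.32 at adjusted p = 0.0239) and 7.92-fold higher in Doxo+Cyta+DAC (2.99, SE 0.33 at adjusted p = 1.43e-05). Doxo+Cyta+DAC was 2.26-fold above Doxo+Cyta (adjusted p = 0.00134), and its difference from Doxo was 0.10 on the log2 scale (SE 0.25 at adjusted p = 0.744), with a sign that turned to -0.21 without Doxo+Cyta+DAC 33. Doxo+Cyta was 2.11-fold below Doxo (adjusted p = 0.045); this call was kept only when Doxo+Cyta+DAC 31 or 33 was the library left out, and leaving out any other single library gave an adjusted p of 0.058 to 0.154. The call of Doxo+Cyta against NT was lost without NT 1 (adjusted p = 0.224), NT 2 (0.384) or Doxo+Cyta 22 (0.0552). No stretch of 100 bases in HBE1 exons occurs elsewhere in the 2 clusters. In GENCODE 44 the annotated span of HBG2 runs on the same strand across all 816 exon bases of HBE1, whereas the HBG2 model used for counting ended before HBE1 began.

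HBG2 and HBG1 encode nearly identical fetal gamma chains, and 28.3% of 100-base exon stretches in HBG2 have an identical copy in HBG1. HBG2 stood at 4827 and 4421 CPM in NT, at 5092, 5900 and 5764 CPM in Doxo 4, 5 and 6, at 6408, 5404 and 5731 CPM in Doxo+Cyta 19, 20 and 22, and at 3299, 4083, 3123 and 5111 CPM in Doxo+Cyta+DAC 30 to 33. The Doxo+Cyta+DAC libraries lay below all Doxo+Cyta libraries, and Doxo+Cyta+DAC 33 lay just above Doxo 4. HBG2 fell by 0.52 on the log2 scale in Doxo+Cyta+DAC against Doxo (SE 0.14 at adjusted p = 0.00671) and by 0.58 against Doxo+Cyta (SE 0.14 at adjusted p = 0.00296). The difference from NT was -0.24 (SE 0.16 at adjusted p = 0.23), and without Doxo+Cyta+DAC 33 it was -0.40 with an adjusted p of 0.0231. HBG1 stood at 1630 and 803 CPM in NT 1 and NT 2, at 1220 to 1476 CPM in Doxo, at 1562, 1980 and 1152 CPM in Doxo+Cyta 19, 20 and 22, and at 918 to 1195 CPM in Doxo+Cyta+DAC. The NT libraries enclosed all but 1 of the other libraries, and the sign of HBG1 against NT depended on which NT library was used. HBG1 was lower in Doxo+Cyta+DAC than in Doxo+Cyta (a log2 change of -0.52 with SE 0.21 at adjusted p = 0.0446), a call lost without Doxo+Cyta 20 (-0.32, adjusted p = 0.215) and also without Doxo 5 (0.0525), Doxo 6 (0.0531), Doxo+Cyta 19 (0.0859) or Doxo+Cyta+DAC 30 (0.086), 31 (0.0522), 32 (0.114) or 33 (0.0536). Summing both genes, which removes the split between them but does not restore fragments that may have been left out of the count, gave a fall of 0.47 in Doxo+Cyta+DAC against Doxo (adjusted p = 0.0097) and of 0.57 against Doxo+Cyta (adjusted p = 0.00276).

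HBB, the adult beta chain, was lower in Doxo+Cyta+DAC than in every other group. It stood at 457 and 403 CPM in NT, at 374, 521 and 483 CPM in Doxo 4, 5 and 6, and at 499.5, 484 and 537 CPM in Doxo+Cyta 19, 20 and 22. The libraries Doxo+Cyta+DAC 30 to 33 held 132, 137, 123 and 219 CPM. All 4 libraries were below all 8 others. HBB was 2.81-fold lower in Doxo+Cyta+DAC than in NT (a log2 change of -1.49 with SE 0.19 at adjusted p = 3.95e-05), 3.01-fold lower than in Doxo (-1.59, SE 0.17 at adjusted p = 5.25e-06) and 3.32-fold lower than in Doxo+Cyta (-1.73, SE 0.17 at adjusted p = 2.04e-06). All 3 calls held whichever single library was left out, with adjusted p-values up to 0.00141. Among Doxo, Doxo+Cyta and NT the HBB differences ran from 0.10 to 0.24 on the log2 scale, with SEs of 0.19 to 0.21 and adjusted p-values of 0.558 to 0.799.

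HBD encodes the delta chain of the minor adult hemoglobin. It stood at 11.5 CPM in both NT libraries, at 19.4, 29.0 and 28.6 CPM in Doxo 4, 5 and 6, at 19.5, 17.9 and 23.2 CPM in Doxo+Cyta 19, 20 and 22, and at 14.4, 10.6, 9.76 and 18.4 CPM in Doxo+Cyta+DAC 30 to 33. The Doxo and Doxo+Cyta libraries were all above NT, and the Doxo+Cyta+DAC libraries lay on both sides of NT. HBD was 2.23-fold higher in Doxo than in NT (SE 0.26 on the log2 scale, adjusted p = 0.0142), a call lost without NT 1 (0.138), NT 2 (0.126), Doxo 5 (0.0636) or Doxo 6 (0.0603). It was 1.94-fold lower in Doxo+Cyta+DAC than in Doxo (adjusted p = 0.00132), which held whichever single library was left out, and 1.53-fold lower than in Doxo+Cyta (adjusted p = 0.021), which was lost without Doxo+Cyta 22 (0.0837), Doxo+Cyta+DAC 31 (0.0578) or Doxo+Cyta+DAC 32 (0.0653). In Doxo+Cyta against NT its log2 fold change was 0.81 (SE 0.26 at adjusted p = 0.111), and without Doxo 4 and Doxo+Cyta 20 it was 0.87 with an adjusted p of 0.0276.

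**Figure D2:**
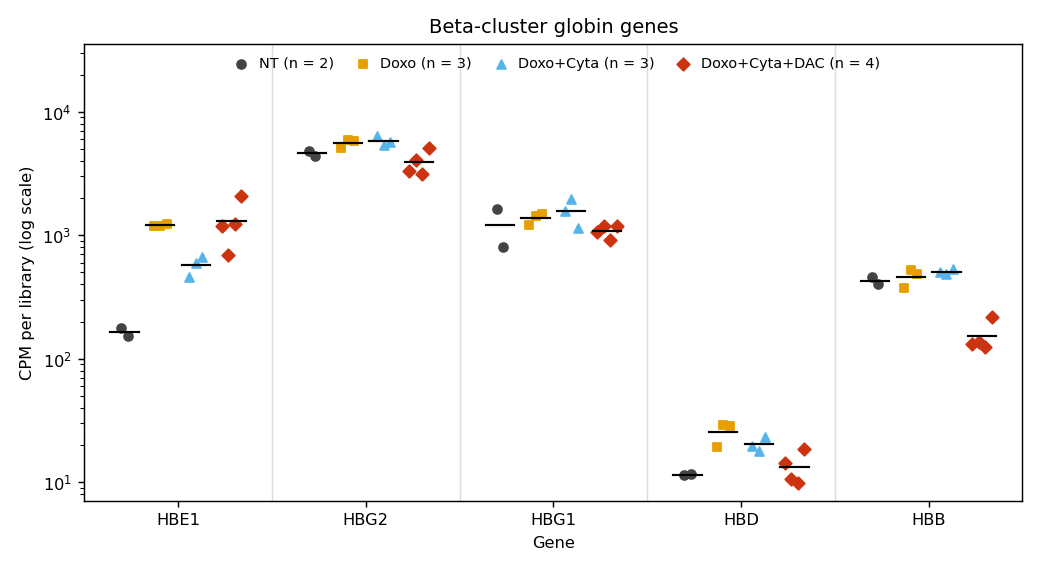
CPM of the 5 beta cluster genes (x axis) in each library, on a log y axis, with 1 point a library in the color and shape of its group and a line at the group mean. The Doxo+Cyta+DAC points of HBB, at 123 to 219 CPM, lie under all others, and the NT points of HBE1, at 151 and 176 CPM, lie under all relapses.

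The make-up of the beta cluster signal was measured within each library as percent of counts divided by exon length, which does not depend on scaling between libraries. HBE1 held 1.80% and 1.89% of it in NT 1 and NT 2, 11.3%, 9.85% and 10.3% in Doxo 4, 5 and 6, 3.75%, 5.15% and 6.03% in Doxo+Cyta 19, 20 and 22, and 15.97%, 8.40%, 17.5% and 18.5% in Doxo+Cyta+DAC 30 to 33. HBG1 and HBG2 together held 91.7% ± 0.440 in NT (SD, n = 2), 84.1% ± 0.225 in Doxo (n = 3), 89.1% ± 1.69 in Doxo+Cyta (n = 3) and 82.4% ± 4.72 in Doxo+Cyta+DAC (n = 4). In every relapse library the HBE1 share was above, and the gamma share below, both NT libraries. In exact two-sided permutation tests of 16 such shares, the HBE1 difference between all relapses (10.7% ± 5.19, n = 10) and NT (1.84% ± 0.0662, n = 2) did not overlap and had p = 0.0606 (adjusted p = 0.162), where 10 against 2 libraries cannot give a p below 0.0152. The HBB share was 5.43% ± 0.562 in the 6 Doxo and Doxo+Cyta libraries and 2.32% ± 0.164 in the 4 Doxo+Cyta+DAC libraries, without overlap (exact permutation p = 0.00476, the smallest that 6 against 4 allows, adjusted p = 0.0381). Per library it was 4.62%, 5.59% and 5.24% in Doxo 4, 5 and 6, 5.30%, 5.45% and 6.35% in Doxo+Cyta 19, 20 and 22, and 2.30%, 2.16%, 2.28% and 2.55% in Doxo+Cyta+DAC 30 to 33. Leaving out any 1 of these 10 libraries, or both Doxo 4 and Doxo+Cyta 20, left a difference of at least 2.92 percentage points, at adjusted p-values of 0.0635 to 0.152 from exact permutation tests of fewer libraries. HBD held 0.123% to 0.251% of the signal in every library.

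**Figure D3:**
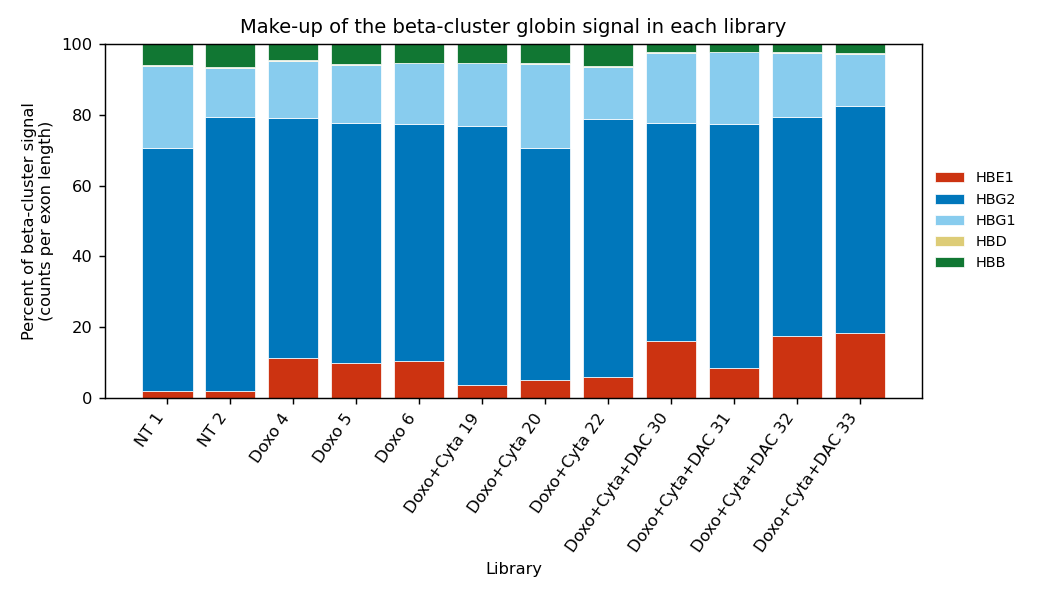
Percent of the beta cluster signal (y axis, counts divided by exon length, 0 to 100) held by each of the 5 genes in each of the 12 libraries (x axis). The HBE1 bar grows from 1.80% in NT 1 to 18.5% in Doxo+Cyta+DAC 33, and the HBB bar is 2.16% to 2.55% in Doxo+Cyta+DAC; HBD, below 0.3%, is too thin to see.

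HBZ, the embryonic zeta chain of the alpha cluster, was low throughout, with 13 to 65 counts a library. It stood at 3.34 and 3.57 CPM in NT, at 1.05, 1.05 and 0.820 CPM in Doxo 4, 5 and 6, at 3.52, 1.87 and 1.53 CPM in Doxo+Cyta 19, 20 and 22, and at 1.53, 0.962, 1.21 and 1.11 CPM in Doxo+Cyta+DAC 30 to 33. All Doxo and Doxo+Cyta+DAC libraries were below NT, and Doxo+Cyta 19 was at the NT level. HBZ was 3.54-fold lower in Doxo than in NT (a log2 change of -1.82 with SE 0.35 at adjusted p = 0.00728), a call lost without NT 1 (0.0795) or NT 2 (0.0736), and 2.85-fold lower in Doxo+Cyta+DAC (-1.51, SE 0.32 at adjusted p = 0.00147), which held whichever single library was left out. Doxo+Cyta+DAC was 1.90-fold below Doxo+Cyta (adjusted p = 0.0153), a call lost without Doxo+Cyta 19 (-0.49, adjusted p = 0.153). HBZ in Doxo+Cyta was 2.37-fold that in Doxo at an adjusted p of 0.057, which became 0.0492 without Doxo+Cyta 20 and 0.0366 without Doxo+Cyta 22. Of its 100-base exon stretches 36.3% have an identical copy in the neighbouring pseudogene HBZP1. Thus the embryonic genes of the 2 clusters moved in opposite directions in Doxo and in Doxo+Cyta+DAC against NT. HBM, the mu globin gene of definitive erythroid cells, had 0 counts in all 12 libraries, which allows up to 0.154 to 0.237 CPM.

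HBA2 and HBA1 encode the same alpha chain, and 61% of 100-base exon stretches in HBA2 recur in HBA1, so the split between them is uncertain. HBA2 stood at 189 and 246 CPM in NT, at 514, 178 and 504 CPM in Doxo 4, 5 and 6, at 366, 210 and 494 CPM in Doxo+Cyta 19, 20 and 22, and at 353, 657, 595 and 639 CPM in Doxo+Cyta+DAC 30 to 33. Doxo 5 was below both NT libraries, Doxo+Cyta 20 lay between them, and the other relapse libraries were above both. HBA2 was 2.58-fold higher in Doxo+Cyta+DAC than in NT (a log2 change of 1.37 with SE 0.41 at adjusted p = 0.0133), which was lost without NT 1 (0.122) or NT 2 (0.0507). In Doxo and Doxo+Cyta its log2 fold changes against NT were 0.87 (SE 0.42 at adjusted p = 0.186) and 0.71 (SE 0.41 at adjusted p = 0.353). Against Doxo+Cyta the log2 fold change of Doxo+Cyta+DAC was 0.65 (SE 0.34 at adjusted p = 0.115), with adjusted p-values of 0.0405 without Doxo 5 and 0.0479 without Doxo+Cyta 22.

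HBA1 varied less. It stood at 165 and 147 CPM in NT, at 212, 169 and 180 CPM in Doxo 4, 5 and 6, at 217, 173 and 153 CPM in Doxo+Cyta 19, 20 and 22, and at 201, 251, 238 and 258 CPM in Doxo+Cyta+DAC 30 to 33. Doxo+Cyta+DAC was above NT in every library, and its lowest library lay within the range of Doxo and of Doxo+Cyta. HBA1 was 1.52-fold higher in Doxo+Cyta+DAC than in NT (SE 0.15 on the log2 scale, adjusted p = 0.00474), a call lost without NT 2 (0.069). It was 1.27-fold higher than in Doxo (adjusted p = 0.0376), which was lost without Doxo 5 (0.152), Doxo 6 (0.113) or Doxo+Cyta+DAC 31 (0.0797), 32 (0.0646) or 33 (0.0901), and 1.31-fold higher than in Doxo+Cyta (adjusted p = 0.0197), which was lost without Doxo+Cyta 20 (0.0508), Doxo+Cyta 22 (0.116) or Doxo+Cyta+DAC 33 (0.0517). Under upper-quartile scaling the latter 2 differences were both 0.30, with adjusted p-values of 0.0677 and 0.0664. For the sum of HBA1 and HBA2 the rise over NT was 2.11-fold (adjusted p = 0.00693), and the differences from Doxo and from Doxo+Cyta were 0.45 and 0.57 on the log2 scale (SE 0.24 each), with adjusted p-values of 0.125 and 0.0579. The counting did not use strand, and in GENCODE 44 the spans of antisense non-coding RNAs cover 159 exon bases of HBA2 and 178 of HBA1, so reads of those RNAs and of the alpha genes cannot be told apart.

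HBQ1, which encodes the theta globin chain whose role in hemoglobin is unsettled, stood at 17.2 and 15.2 CPM in NT, at 14.8, 12.9 and 11.9 CPM in Doxo 4, 5 and 6, at 18.2, 23.3 and 14.5 CPM in Doxo+Cyta 19, 20 and 22, and at 11.9, 14.6, 12.5 and 13.8 CPM in Doxo+Cyta+DAC 30 to 33. Doxo+Cyta 20 was the highest library. HBQ1 was 1.41-fold lower in Doxo+Cyta+DAC than in Doxo+Cyta (SE 0.16 on the log2 scale, adjusted p = 0.0142), and without Doxo+Cyta 20 the fall was 0.32 on the log2 scale with an adjusted p of 0.0811. Against NT its log2 fold changes were -0.30 for Doxo, 0.20 for Doxo+Cyta and -0.30 for Doxo+Cyta+DAC (SE 0.18 to 0.19), with adjusted p-values of 0.316, 0.591 and 0.183. Without Doxo 4 and Doxo+Cyta 20 these changes were -0.42, -0.0093 and -0.33. The adjusted p-values were then 0.0492, 0.974 and 0.0484, so HBQ1 was called lower in Doxo and in Doxo+Cyta+DAC. Leaving out these 2 libraries was not planned. Calls over all genes against NT then rose from 1515 to 5267 in Doxo and from 6893 to 8539 in Doxo+Cyta+DAC. HBQ1 was not called against NT in any other setting.

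**Figure D4:**
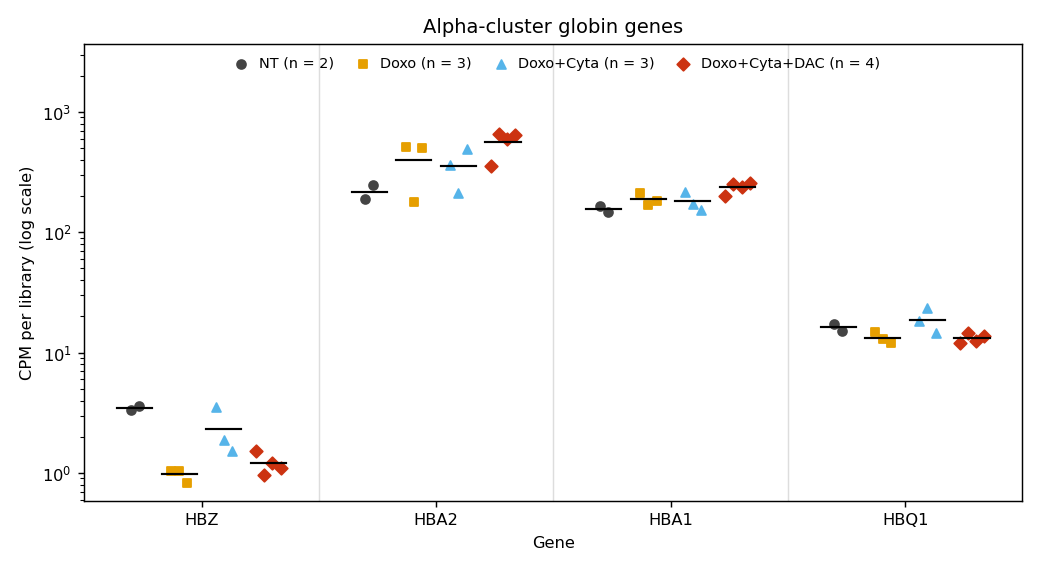
CPM of the alpha cluster genes with counts (x axis) in each library, on a log y axis, with 1 point a library in the color and shape of its group and a line at the group mean; HBM, at 0 in every library, cannot be drawn on a log axis. HBA2 ranges from 178 to 657 CPM and overlaps between Doxo, Doxo+Cyta and NT, and the NT points of HBZ, at 3.34 and 3.57 CPM, lie above all Doxo and Doxo+Cyta+DAC points.

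The balance between the clusters leaned towards beta-type RNA in every library. The alpha cluster held 4.87% and 6.48% of the length-divided globin signal in NT 1 and NT 2, 8.66%, 3.84% and 7.24% in Doxo 4, 5 and 6, 6.21%, 4.52% and 7.50% in Doxo+Cyta 19, 20 and 22, and 9.27%, 13.1%, 13.9% and 9.88% in Doxo+Cyta+DAC 30 to 33. The 4 Doxo+Cyta+DAC libraries (11.5% ± 2.30) were all above the 6 Doxo and Doxo+Cyta libraries (6.33% ± 1.85; exact two-sided permutation p = 0.00476, adjusted p = 0.0381). Leaving out any 1 of these 10 libraries gave adjusted p-values of 0.0635 to 0.097. With the near-identical genes HBA1, HBA2, HBG1 and HBG2 left out, the difference was 0.1899 percentage points in the other direction (exact permutation, adjusted p = 0.73). Within the alpha cluster HBZ held 0.908% ± 0.0199 in NT and 0.253% ± 0.167 in the 10 relapses, without overlap (exact permutation p = 0.0152, the smallest possible, adjusted p = 0.0808). HBA1 took 37.3% and 46.6% of the counts of HBA1 and HBA2 in NT and 23.7% to 48.8% in the relapses, and HBG1 took 15.4% and 25.2% of the counts of HBG1 and HBG2 in NT and 16.7% to 26.8% in the relapses. For both splits the adjusted p-values of the exact permutation tests were 0.263 to 0.788.

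Non-coding genes of the beta cluster were read alongside. HBBP1, a pseudogene between HBG1 and HBD, stood at 297 and 253 CPM in NT, at 253 to 298 CPM in Doxo, at 322 to 359 CPM in Doxo+Cyta and at 177, 180, 165 and 204 CPM in Doxo+Cyta+DAC 30 to 33. As with HBB, all Doxo+Cyta+DAC libraries were below all others. HBBP1 fell in Doxo+Cyta+DAC by 0.60 on the log2 scale against NT (SE 0.11 at adjusted p = 0.000705), by 0.62 against Doxo (adjusted p = 0.00013) and by 0.91 against Doxo+Cyta (adjusted p = 4.54e-06). BGLT3, a long non-coding RNA downstream of HBG1 that acts on the gamma genes, stood at 30.6 and 31.2 CPM in NT and at 9.59 to 20.0 CPM in the relapses. It was lower than NT in Doxo (-1.20, SE 0.24 at adjusted p = 0.00866) and in Doxo+Cyta+DAC (-1.11, SE 0.22 at adjusted p = 0.00107), with -0.91 in Doxo+Cyta (adjusted p = 0.0692). The 7 olfactory receptor genes beside the beta cluster had at most 1 count in any library. The globin family members outside the clusters were also near 0: MB (myoglobin) had at most 1 count, CYGB (cytoglobin) and NGB (neuroglobin) had 0, and ADGB (androglobin) had 1 to 13.

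Of the 10 tested genes beside the alpha cluster, 2 were higher and 5 lower in Doxo+Cyta+DAC than in Doxo and than in Doxo+Cyta, and 2 were higher and 4 lower than in NT. The shares of all tested genes called higher and lower were 29.1% and 30.4% against Doxo, 29.8% and 30.5% against Doxo+Cyta, and 24.9% and 23.7% against NT. NPRL3, whose introns hold the alpha globin enhancers, was lower in Doxo+Cyta+DAC than in Doxo+Cyta (-0.52, SE 0.10 at adjusted p = 0.000326) and than in Doxo (-0.24, adjusted p = 0.048), with -0.20 against NT (adjusted p = 0.152). The base excision repair gene MPG fell by 1.16 against Doxo+Cyta (adjusted p = 1.24e-06), ITFG3 (now FAM234A) fell by 0.84 (adjusted p = 1.21e-05), and the Wnt pathway scaffold AXIN1 was at -0.22 (adjusted p = 0.0509). The 2 higher genes, POLR3K and SNRNP25, were named after their values were seen. POLR3K, a subunit of RNA polymerase III, was 1.48 above Doxo+Cyta (adjusted p = 4.29e-05), and SNRNP25, of the minor spliceosome, was 1.202 above it (adjusted p = 0.000136).

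Among 8 transcription factors and cofactors that activate globin genes, 6 were lower in Doxo+Cyta+DAC than in NT, 4 lower than in Doxo and 6 lower than in Doxo+Cyta, and 0 were higher at an adjusted or an unadjusted p under 0.05 in edgeR. Of all tested genes 23.7%, 30.4% and 30.5% were lower in these comparisons. The median log2 fold changes of the 8 were -0.58, -0.35 and -0.43. GATA1, the master erythroid factor, stood at 294 and 266 CPM in NT, at 286 to 326 CPM in Doxo, at 330 to 421 CPM in Doxo+Cyta and at 175, 172, 194 and 187 CPM in Doxo+Cyta+DAC 30 to 33. LDB1, which joins enhancers to globin promoters, stood at 456 and 468 CPM in NT, at 336 to 449.8 CPM in Doxo and Doxo+Cyta, and at 211 to 227 CPM in Doxo+Cyta+DAC. For both genes the Doxo+Cyta+DAC libraries lay below all others. Against Doxo+Cyta, GATA1 fell by 1.01 (SE 0.10 at adjusted p = 1.72e-06), LDB1 by 0.91 (SE 0.09 at adjusted p = 1.61e-06), NFE2, which binds the beta cluster enhancer, by 0.41 (SE 0.11 at adjusted p = 0.00612) and TAL1, a partner of GATA1, by 0.26 (SE 0.09 at adjusted p = 0.0207). In Doxo against NT 2 of the 8 were lower, LDB1 (-0.36, adjusted p = 0.043) and NFIA (-1.505, adjusted p = 0.00507), beside 4.63% of all tested genes. In Doxo+Cyta against NT 1 was lower, NFIA (-1.33, adjusted p = 0.0319), beside 0.551% of all tested genes. NFIA was named after its values were seen.

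**Figure D5:**
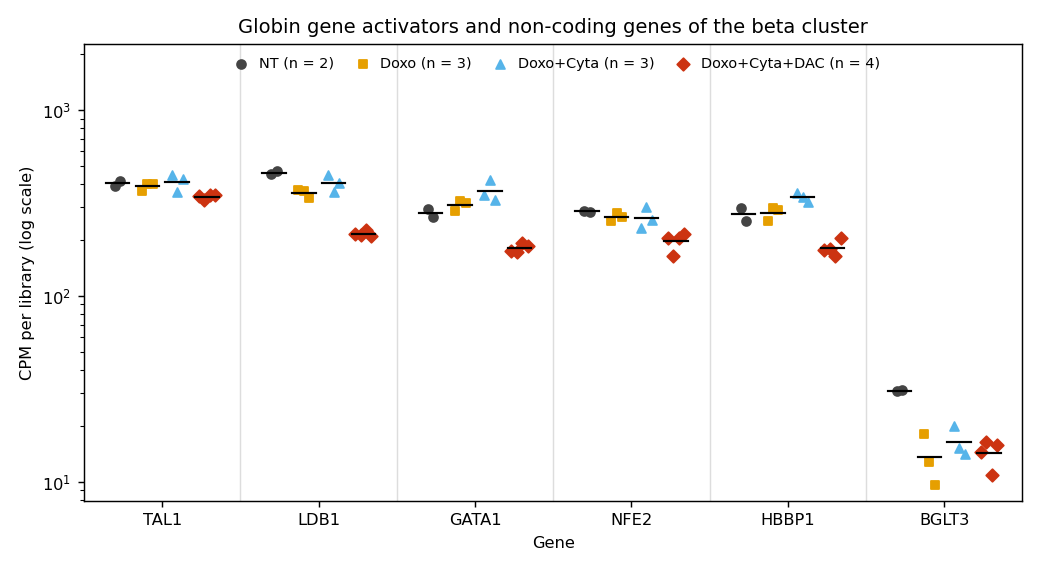
CPM of 4 globin gene activators and of 2 non-coding genes of the beta cluster (x axis) in each library, on a log y axis, with 1 point a library in the color and shape of its group and a line at the group mean. The Doxo+Cyta+DAC points of LDB1, GATA1 and HBBP1 lie under those of all other groups, and the NT points of BGLT3, at 30.6 and 31.2 CPM, lie above all relapses.

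Of 14 tested genes of the fetal to adult switch, 7 were higher and 2 lower in Doxo+Cyta+DAC than in Doxo+Cyta, 6 higher and 2 lower than in Doxo, and 5 higher and 2 lower than in NT, where 29.8%, 29.1% and 24.9% of all tested genes were higher and 30.5%, 30.4% and 23.7% lower. DNMT1, the maintenance DNA methyltransferase, averaged 676 CPM in NT, 417 CPM in Doxo, 495 CPM in Doxo+Cyta and 1035 CPM in Doxo+Cyta+DAC. It was 1.06 higher on the log2 scale than in Doxo+Cyta (SE 0.16 at adjusted p = 5.34e-05) and 0.70 lower in Doxo than in NT (SE 0.18 at adjusted p = 0.0271). CHD4, the remodeler of the NuRD repressor complex, was 0.51 higher in Doxo+Cyta+DAC than in Doxo+Cyta (SE 0.08 at adjusted p = 6.35e-05), IGF2BP1, an RNA-binding protein of the fetal program, was 0.35 higher (SE 0.10 at adjusted p = 0.00934), and MYB, a repressor of fetal globin, was at -0.21 (SE 0.15 at adjusted p = 0.219). In Doxo against NT 1 was higher, ZBTB7A (0.46, adjusted p = 0.0438), and 1 lower, DNMT1, beside 6.06% and 4.63% of all tested genes. In Doxo+Cyta against Doxo 1 was lower, ZBTB7A (-0.49, adjusted p = 0.0391), beside 2.32% of all tested genes. ZBTB7A was also among the genes called higher in Doxo+Cyta+DAC than in NT, in Doxo and in Doxo+Cyta. Its mean was 41.3 CPM in Doxo+Cyta+DAC, 23.0 CPM in NT, 31.6 CPM in Doxo and 22.5 CPM in Doxo+Cyta. LIN28B and IGF2BP3 were called higher in the same comparisons. LIN28B averaged 143 CPM in Doxo+Cyta+DAC, 61.4 in NT, 46.6 in Doxo and 42.1 in Doxo+Cyta. IGF2BP3 averaged 50.2, 25.8, 23.2 and 21.5 CPM in these groups. The repressor BCL11A averaged 14.3, 18.7, 15.0 and 17.8 CPM and was not called in these comparisons. ZBTB7A, a silencer of the gamma genes, LIN28B, IGF2BP3 and BCL11A were named after their values were seen.

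Of the 10 heme synthesis genes, 1 was higher and 5 lower in Doxo+Cyta+DAC than in NT, with a median log2 fold change of -0.43, where 24.9% of all tested genes were higher and 23.7% lower. CPOX, a late enzyme of the pathway, averaged 357 CPM in NT and 123 CPM in Doxo+Cyta+DAC and fell by 1.54 (SE 0.20 at adjusted p = 3.77e-05). FECH, which inserts iron into the ring, fell by 0.77 (SE 0.16 at adjusted p = 0.00156). UROD moved otherwise: it was at 0.38 against NT in Doxo+Cyta+DAC (SE 0.19 at adjusted p = 0.117), 1.58 higher than in Doxo (SE 0.18 at adjusted p = 6.25e-06), and 1.19 lower in Doxo than in NT (SE 0.20 at adjusted p = 0.0038). Of 6 tested genes of hemoglobin assembly, heme sensing and heme breakdown, 1 was higher and 4 lower in Doxo+Cyta+DAC than in Doxo+Cyta, beside 29.8% and 30.5% of all tested genes. Against Doxo 1 was higher and 3 lower, beside 29.1% and 30.4%. Against NT 1 was higher and 2 lower, beside 24.9% and 23.7%. Against Doxo+Cyta, EIF2AK1, the heme-sensing kinase that limits globin translation, fell by 1.24 (SE 0.14 at adjusted p = 5.66e-06). There BLVRB fell by 1.65 (SE 0.18 at adjusted p = 3.15e-06) and the heme oxygenase HMOX1 by 0.93 (SE 0.14 at adjusted p = 6.12e-05). BLVRA fell by 0.37 (SE 0.12 at adjusted p = 0.0138). It averaged 76.8 CPM in NT, 95.4 CPM in Doxo+Cyta (116 CPM in Doxo+Cyta 20) and 73.6 CPM in Doxo+Cyta+DAC. HMOX1 was higher than NT in Doxo (1.49, SE 0.17 at adjusted p = 0.000407) and in Doxo+Cyta (0.80, SE 0.17 at adjusted p = 0.0394).

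Markers of cell identity were read in the same libraries. The summed erythroid markers stood at 3017 and 3117 CPM in NT, 3156 to 3213 in Doxo, 2814 to 3563 in Doxo+Cyta and 2471 to 3074 in Doxo+Cyta+DAC. Of 17 erythroid membrane and receptor genes, 3 were higher and 8 lower in Doxo+Cyta+DAC than in Doxo+Cyta, beside 29.8% and 30.5% of all tested genes. TFRC, the transferrin receptor, was at -0.13 (adjusted p = 0.552) and ANK1 at -0.01 (adjusted p = 0.941), and RHAG and CD36 were 0.25 and 0.52 higher (adjusted p = 0.017 and 0.00425). The 12 megakaryocyte markers summed to 1204 to 1513 CPM in Doxo+Cyta+DAC and 1768 to 2224 CPM in the other libraries, with the defining platelet gene PF4 at 3 counts or fewer in every library. Of the 9 tested, 3 were higher and 5 lower in Doxo+Cyta+DAC than in Doxo+Cyta. ITGA2B, the most abundant of them, was 0.59 lower (adjusted p = 0.000802), while GP6 went from a mean of 6.45 to 47.3 CPM (2.88 higher, adjusted p = 1.25e-05), and GP1BA and TREML1 were also higher; these 3 were named after their values were seen. The 8 granulocyte and monocyte markers summed to 27.7 to 47.8 CPM and the 6 lymphocyte markers to 3.72 to 9.002 CPM, with MPO, ELANE, PRTN3, CD3E and MS4A1 at 3 counts or fewer in every library. The part of these shifts in the globin values was not tested.

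By root-mean-square difference of mean-centred log2 CPM over the 12 libraries, the 3 genes closest to each of 8 globin genes were sought among 14155 others. HBZ and HBM, with means under 10 CPM, were left out of this search. For HBE1, whose own spread by this measure was 1.11, they were OSMR (0.40), UNC13A (0.43) and NOV (0.47). For HBB (spread 0.81) they were BBS2 (0.15), ANKRA2 (0.16) and MANBA (0.17). For HBD (0.52) they were PPP3CC (0.17), MAB21L1 (0.20) and FHL2 (0.20), and for HBA2 (0.67) SLC12A5 (0.34), LAMA2 (0.39) and GLIPR1 (0.40). HBG2 (0.31) was closest to BBS9 (0.12), KATNA1 (0.13) and GLE1 (0.13), HBG1 (0.35) to PFDN5 (0.18), UXT (0.19) and RPS24 (0.19), HBA1 (0.27) to ZNF827 (0.13), CXorf56 (0.14) and RNF145 (0.15), and HBQ1 (0.27) to CORO7 (0.12), DNPH1 (0.12) and SNHG15 (0.13). No globin gene could appear in these lists, since the 10 were left out of the search. A small difference partly reflects a small spread, as for HBG2, HBA1 and HBQ1. Some of the closest genes had means under 10 CPM themselves. SLC12A5, LAMA2 and GLIPR1 averaged 1.17, 0.80 and 3.56 CPM. OSMR, UNC13A, NOV, BBS9 and ZNF827 averaged 3.64, 7.70, 4.85, 3.24 and 8.13 CPM.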

How the data were processed

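RNA was sequenced as 100-base paired ends from TruSeq libraries of 12 HEL cultures, with groups taken from the treatment labels. The series describes 3 untreated replicates, and the 2 labelled as untreated were used here. The deposited gene counts were made by the authors with Bowtie2 2.2.8 on GRCh38 and, per the file header, featureCounts 1.6.0 without strand. The header shows no option for counting multi-mapping fragments. Whether fragments matching near-identical genes equally well were left out or placed on 1 copy was not settled, so counts of these genes may be too low. Counts were raw, and 4 of 26485 genes missing a count were left out. The globin genes and all gene lists were chosen with earlier results of these data known.

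Counts were tested with edgeR 4.0.16 in R 4.3.3 (filterByExpr, TMM, quasi-likelihood F test, 1 fit of all 12 libraries, Benjamini-Hochberg adjustment over 14164 genes, threshold 0.05). Alternatives were DESeq2 1.42.0, other scalings, other filters on low counts, fits of only the compared groups, summed near-identical genes and leaving out libraries. CPM used TMM factors, and levels between genes were divided by exon length. Shares within a library were compared by exact two-sided permutation tests in Python 3.11.15, adjusted over 16 tests. The edgeR test was checked on simulated counts for some of the comparisons, with the same spread for all genes. The permutation test was checked only on a small set of known values. Up to 4 tested genes of each list were named, those with the highest mean CPM, and for each globin gene with a mean of at least 10 CPM, the 3 tested genes closest to it, with no minimum on their own level. Log2 CPM for likeness used a prior count of 2. Floors of 3 counts cover counting error only. Values of some listed genes are not reported here.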

Additional observations from a re-analysis of the deposited data

Results flagged for a closer look

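In Doxo+Cyta+DAC 33, HBB stood at 218.9 CPM, far from the other 3 libraries of its group at 123 to 137 CPM, and still below every library of the other groups. In Doxo+Cyta+DAC 30, HBA1 took 36.3% of the counts of HBA1 and HBA2, against 27.7% to 28.8% in the other 3 libraries of the group. These were the 2 libraries past Dixon's limit among 17 groups of values tested, where chance alone gives about 1 in 20. All 17 came from Doxo+Cyta+DAC, because the test was made only in groups of at least 4 libraries. NT, Doxo and Doxo+Cyta were too small and were not screened in this way.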

How the results depend on the processing

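No paired analysis was possible because the groups share no replicate numbers. Of the changes of single globin genes under the alternatives, 1022 kept their direction and side of the threshold, 50 fell out of significance, 14 became significant and 24 changed sign, none of the last being a call. Without 1 library at a time the number of globin genes called ran from 1 to 3 (Doxo against NT), 0 to 1 (Doxo+Cyta against NT), 3 to 6 (Doxo+Cyta+DAC against NT), 0 to 1 (Doxo+Cyta against Doxo), 3 to 4 (Doxo+Cyta+DAC against Doxo) and 5 to 8 (Doxo+Cyta+DAC against Doxo+Cyta). For Doxo+Cyta against NT it was 2 with DESeq2 and 2 without Doxo 4 and Doxo+Cyta 20. For Doxo+Cyta against Doxo it was 0 under upper-quartile scaling, 2 with no filter on low counts, 2 with at least 10 counts in every sample and 2 with DESeq2. Over all genes that comparison gave 454, 520, 482 and 909 calls in these settings. When Doxo+Cyta 20 or Doxo+Cyta 22 was left out, the 1 gene called there was HBZ, higher, and not HBE1. Over all genes, Doxo against NT gave 1515 calls, 5267 without Doxo 4 and Doxo+Cyta 20, and as few as 81 without NT 1. Doxo+Cyta against NT gave 207, 816 with DESeq2, 358 with no filter, 2037 without those 2 libraries, 13 when only these groups were fitted, and 0 without NT 1 or NT 2. Doxo+Cyta against Doxo gave 481, 909 with DESeq2, 1261 without those 2 libraries and 67 when only these groups were fitted. In fits without 1 relapse library, Doxo+Cyta+DAC against NT gave 6264 to 7740 calls over all genes. Doxo+Cyta+DAC then gave 6966 to 9033 against Doxo and 7605 to 8800 against Doxo+Cyta. With all libraries these numbers were 6893, 8430 and 8546. In fits without NT 1 or NT 2, the lone NT library was assumed to vary like the other groups.

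Log2 changes that reversed without 1 library ranged from -0.25 to 0.77 (HBG1) and -0.030 to 0.19 (HBB) in Doxo against NT, from -0.060 to 0.96 (HBG1) and -0.0092 to 0.34 (HBQ1) in Doxo+Cyta against NT, and from -0.58 to 0.44 (HBG1) in Doxo+Cyta+DAC against NT. In Doxo+Cyta against Doxo they ranged from -0.013 to 0.38 (HBG1), -0.51 to 0.12 (HBA2) and -0.19 to 0.070 (HBA1), and in Doxo+Cyta+DAC against Doxo from -0.21 to 0.31 (HBE1) and -0.065 to 0.10 (HBQ1). Without both Doxo 4 and Doxo+Cyta 20, HBQ1 in Doxo+Cyta against NT was -0.0093, and in Doxo+Cyta against Doxo HBG1 was -0.089, HBA2 0.35 and HBA1 0.092. Upper-quartile scaling gave 0.00011 for HBA1 in Doxo+Cyta against Doxo and -0.039 for HBQ1 in Doxo+Cyta+DAC against Doxo, which was -0.030 with at least 10 counts in every sample and -0.0015 when only these groups were fitted. The causes were not tested.

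With the near-identical genes left out, shares of the remaining signal differed between Doxo with Doxo+Cyta and Doxo+Cyta+DAC by -29.3 percentage points for HBE1, 0.604 for HBD and 0.1899 for the alpha cluster. Between all relapses and NT they differed by 45.2 for HBE1, -0.315 for HBD, -44.9 for HBB, -9.57 for HBZ and -1.84 for the alpha cluster. Exact permutation tests gave an adjusted p of 0.0216 for each of these, except HBD against NT (0.379) and the alpha cluster among relapses (0.73). With all globin genes the alpha cluster difference from NT was 2.74. The genes left out together held most of the signal of both clusters. The HBB and alpha cluster differences between Doxo with Doxo+Cyta and Doxo+Cyta+DAC were 3.38 and -5.46 without the Doxo samples, 2.83 and -4.95 without the Doxo+Cyta samples, 3.30 and -5.34 without Doxo 4 and Doxo+Cyta 20, and 2.92 to 3.26 and -5.96 to -4.42 without 1 library. The HBG1 share of gamma counts in all relapses against NT ran from -4.15 to 5.72 without 1 library.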
